A study of Homo sapiens with 24 samples.

Results

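The genes described here carry cells out of G1 and make chromosomes ready to replicate. They were chosen by name: 42 genes that encode the D and E cyclins with their kinases, a kinase inhibitor, E2F and pocket proteins, the factors that load the replicative helicase at origins, the factors that fire it, and enzymes that act at the fork or supply nucleotides. Of these, 41 had a probe set named for that gene alone, out of 19775 genes with such a probe set, and CDKN2C was not analysed here. Where several probe sets were named for a member, the brightest over all arrays stood for the gene.

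HEK293 cells, an established line derived from human embryonic kidney, were transiently transfected for 24 hours and were then left unstimulated or given TNFα at 10 ng/ml. The 8 conditions were H133W with TNFα, H133W alone, SIRT6 with TNFα, SIRT6 alone, empty vector with TNFα, empty vector alone, untransfected with TNFα, and untransfected alone, with 3 arrays labelled as biological replicates in each. SIRT6 is a deacetylase of histone H3 and was expressed as the Flag-tagged wild type protein from pCDNA3, H133W is a form of it that lacks catalytic activity, and the empty vector was pCDNA3 without an insert. Unstimulated cells received carrier solution, and every culture was of the one cell line with its own SIRT6. The methods give 4 hours of stimulation and the design text gives 1 hour, and the arrays do not settle which is right. The methods state that only a part of the cells took up plasmid, and the cultures were sampled as a whole, so fewer cells in a phase of the cycle cannot be told apart from less RNA of a gene in each cell.

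In a dividing cell, D cyclins with CDK4 or CDK6, and E cyclins with CDK2, phosphorylate the pocket proteins RB1 and RBL1, which releases the E2F factors to switch on genes of DNA replication. In G1 the origin recognition complex, CDC6 and CDT1 place the MCM2 to MCM7 ring on DNA, a step called licensing. Geminin, encoded by GMNN, blocks CDT1 once S phase has begun, and CDC7 with DBF4, together with MCM10 and CDC45, turns the loaded ring into a working helicase. HEK293 cells carry adenoviral genes whose products bind pocket proteins.

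The promoters of several members hold the letters that E2F factors bind, and 5 of them are shown because the results below turn on CDT1, MCM6, ORC1 and RBL1, with E2F1 as a factor of the pathway itself. Capitals mark matches to TTTCCCGC, TTTCGCGC, TTTGCCGC or TTTGGCGC on either strand, where matches may overlap, so that GCGGGAAA is the first of these read on the opposite strand. The sequences are from RefSeq on GRCh38.p14, each is written 5′ to 3′ in the direction of the gene, and each lies within the window of 250 bases before and 50 after a start site. The stretch of CDT1 is chr16:88803669-88803788 on the plus strand, with its match 35 bases before the start.
CDT1: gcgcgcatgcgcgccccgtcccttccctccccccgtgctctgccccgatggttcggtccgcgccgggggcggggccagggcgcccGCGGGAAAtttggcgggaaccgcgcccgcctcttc
That of MCM6 is chr2:135876444-135876603 on the minus strand, and it holds 2 overlapping pairs of matches.
MCM6: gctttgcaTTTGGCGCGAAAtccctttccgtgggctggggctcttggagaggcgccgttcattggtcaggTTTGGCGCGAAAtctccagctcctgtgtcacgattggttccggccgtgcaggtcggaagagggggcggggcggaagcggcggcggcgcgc
RBL1 is shown over chr20:37095998-37096147 on the minus strand, with matches 26 and 16 bases before the start.
RBL1: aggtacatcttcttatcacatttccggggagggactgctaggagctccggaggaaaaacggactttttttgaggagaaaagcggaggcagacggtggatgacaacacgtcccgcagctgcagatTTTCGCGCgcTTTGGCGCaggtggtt
E2F1 is shown over chr20:33686386-33686505 on the minus strand, with matches 33 and 20 bases before the start.
E2F1: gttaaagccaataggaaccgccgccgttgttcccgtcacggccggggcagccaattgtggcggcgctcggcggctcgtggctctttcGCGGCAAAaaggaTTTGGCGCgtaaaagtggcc
ORC1 is shown over chr1:52404424-52404543 on the minus strand and holds no match, which says only that these letters are not in its window.
ORC1: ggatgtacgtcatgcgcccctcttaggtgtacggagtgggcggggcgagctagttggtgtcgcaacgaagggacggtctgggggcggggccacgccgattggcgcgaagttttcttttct

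Promoter windows were found for 34 of the members, and CCND1, CCND2, CCNE2, CDK2, E2F8, MCM4 and MCM5 had none in the table used. The E2F letters stood in the windows of 17 of the 34 (50%), against 3.99% of all 27305 genes with a window. Other letters searched on both strands were closer to the background: CCAAT, bound by NF-Y, in 55.9% of members against 39.7% of genes, CACGTG, an E-box, in 17.6% against 8.77%, and TTTGAA, the CHR element of late cell cycle genes, in 8.82% against 18.2%. Among members with a window, the E2F letters stood in 2 of the 4 called in H133W cells and in 15 of the 30 that were not called. With 4 called members, whose list changed with the arrays kept, these counts cannot decide whether the letters set apart the members that changed.

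The members were well expressed, with mean log2 signals over the 24 arrays between 7.80 and 12.32, all above the median probe set. They also varied little: the 8 condition means of a member spanned 0.20 on the log2 scale at the median, from 0.067 for CCND2 to 0.75 for CDT1, beside a median SD between replicates of 0.083. Spans above 1.5-fold were found for CDT1, ORC1 and MCM5, of which CDT1 alone kept one, at 0.71, without the 3 arrays of low weight named next, while ORC1 and MCM5 both spanned 0.46.

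Before the comparisons, 3 arrays need to be set apart by their weight, which was read from all probe sets. The array of replicate 3 of H133W with TNFα had the lowest weight of the 24 at 0.0844, followed by replicate 2 of untransfected cells at 0.311 and replicate 2 of empty vector cells at 0.383, while the other 21 lay between 0.439 and 3.10, where a low weight means values far from those of the fit. Its 3′ minus 5′ signal of beta-actin, a measure of RNA integrity, was 3.03 on the log2 scale, against 2.05 on the empty vector array and 1.33 to 1.79 on the other 22. Replicate 2 of untransfected cells, at 1.65, lay within that range. On this H133W array 27 members were higher and 14 lower than the mean of its 2 replicates, with a median absolute deviation of 0.18, against 0.031 to 0.10 on the other 23 arrays and 0.23 over all probe sets on the same array. The largest deviations were +0.95 for E2F8, +0.89 for ORC1 and +0.85 for MCM5. Where they use these arrays, the averages and comparisons of a construct with the empty vector are also given without the 3 of them. The 3 were picked for values far from the fit, so leaving them out tends to narrow the spread that all comparisons share. More calls without them are therefore not independent support. Other comparisons are given so only where stated. The part that RNA integrity plays in the values was not tested. Of 9 genes known in HEK293 cells 7 were above the median probe set, PAX2 and NEFM being the exceptions, whereas the blood genes PTPRC, CD3E and HBB and the endothelial genes PECAM1 and CDH5 were all below it, and so were DCN and LUM of fibroblasts, though COL1A1 and COL3A1 were above. SIRT6 probe set 233179_x_at read 9.57 to 9.86 in H133W cells and 9.31 to 9.37 in SIRT6 cells, against 7.76 to 9.31 in empty vector cells, and with TNFα 9.58 to 9.75 in H133W cells and 9.33 to 9.62 in SIRT6 cells, against 8.54 to 9.19 in empty vector cells. The ranges of SIRT6 cells and empty vector cells without TNFα met at 9.31, and the other ranges of either construct lay above those of the empty vector. The other SIRT6 probe set, 219613_s_at, read 8.38 to 8.47 in H133W cells and 8.35 to 8.49 in SIRT6 cells, against 8.20 to 8.45 in empty vector cells, so these overlapped. With TNFα it read 8.53 to 8.94 in H133W cells and 8.22 to 8.44 in SIRT6 cells, against 8.16 to 8.23 in empty vector cells, and the H133W range alone lay apart.

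CDT1, the factor that brings the MCM ring to origins, was the member that moved most in cells given the inactive mutant. In H133W cells with TNFα its log2 signals were 9.78, 9.78 and 9.90, against 9.24, 9.17 and 8.98 in empty vector cells with TNFα. Without TNFα they were 9.64, 9.53 and 9.51 in H133W cells, against 9.20, 9.25 and 9.03 in empty vector cells. All H133W arrays thus lay above all empty vector arrays of the same stimulation, and the 3 highest values of the series were those with TNFα. Untransfected cells read 8.95, 9.005 and 9.27 with TNFα and 9.18, 9.37 and 9.12 without, close to the empty vector.

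The rise of CDT1 was 0.69 ± 0.10 (SE) on the log2 scale with TNFα, or 1.62-fold (limma, adjusted p = 0.00029), and 0.40 ± 0.10 without, or 1.32-fold (limma, adjusted p = 0.0346). The first call was kept when any of its 6 arrays was left out, at 0.62 to 0.75, and without the 3 arrays of low weight, at 0.65, but not when those 6 arrays were fitted alone (adjusted p = 0.0827). The call without TNFα was lost when any of its 6 arrays was left out (limma, adjusted p = 0.0524 to 0.142), although the change stayed between 0.33 and 0.44. The difference between both effects, 0.29 ± 0.14, was not called (limma, adjusted p = 0.567).

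**Figure D1:**
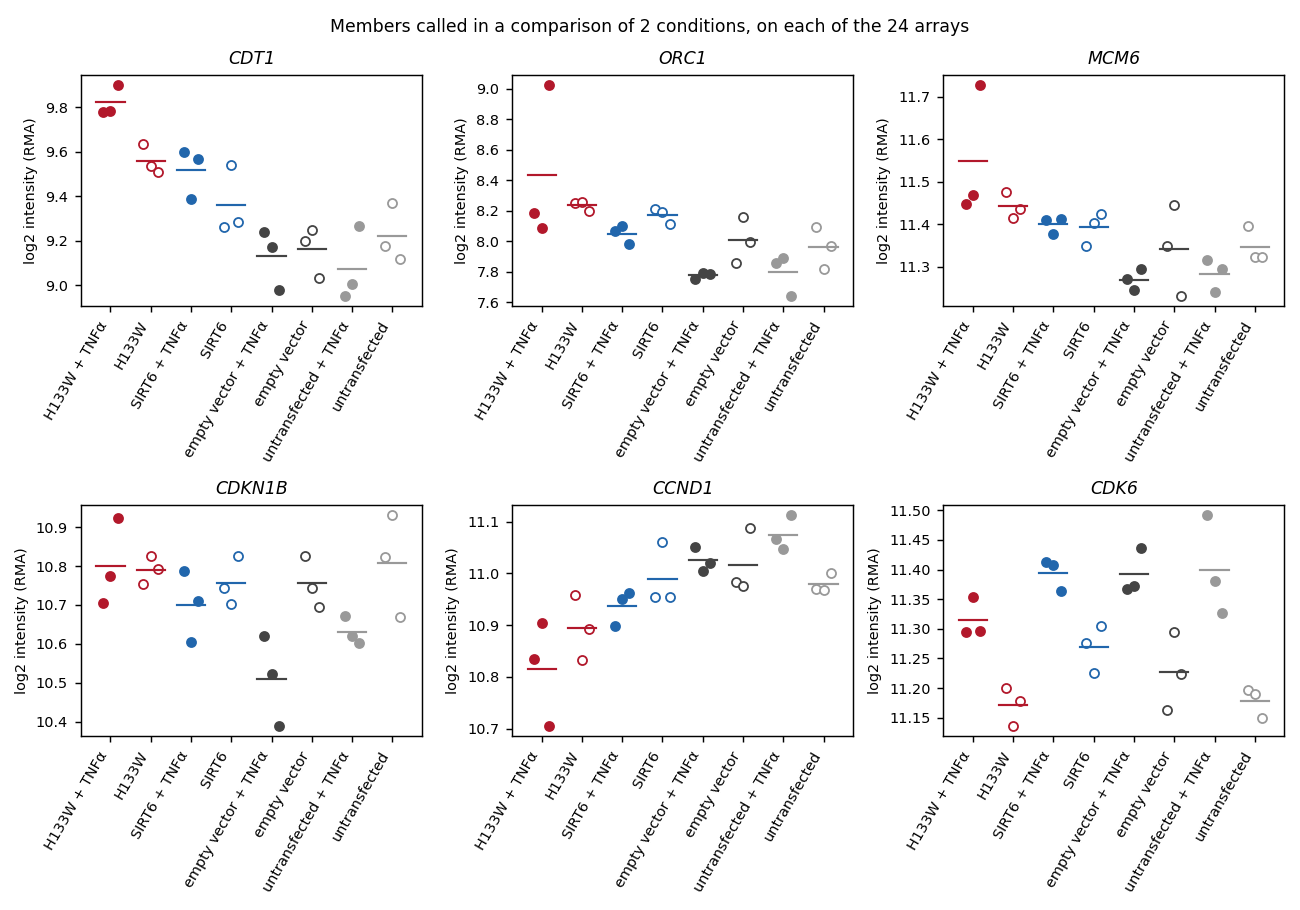
Log2 signal of the members called in a comparison of 2 conditions, with a point for each of the 24 arrays grouped by condition filled with TNFα and open without, and a bar for each condition mean. CDT1 on the 3 arrays of H133W with TNFα lies between 9.78 and 9.90, above every other array, while ORC1 owes its high mean there to 1 array at 9.02.

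Without TNFα, CDT1 was the single member called in H133W cells against empty vector cells, as 1 of 41 higher and 0 lower, against 2.00% of all probe sets higher and 1.03% lower. An unadjusted p under 0.05 was reached by 5 of 41 members, beside 8063 of all 54675 probe sets, and a plain linear model called 2. The median change of the members was 0.015 on the log2 scale, against -0.017 over all probe sets, with 22 members above 0 and 19 below. Without the 3 arrays of low weight the median was 0.043, and 4 members were called, all higher, against 5.70% of all probe sets in either direction: CDT1 at 0.44, MCM5 at 0.36, ORC1 at 0.31 and RFC2, a subunit of the clamp loader, at 0.19. Replicate 2 of the empty vector, which this leaves out, was the highest of its group for MCM5, at 9.22 beside 8.68 and 8.86, while H133W cells read 9.11, 9.13 and 9.15.

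With TNFα, 5 of 41 members were called in H133W cells against empty vector cells, 4 higher against 2.97% of all probe sets and 1 lower against 2.28%. Besides CDT1, the higher ones were ORC1, MCM6 and CDKN1B, and the lower one was CCND1. The background covers all 54675 probe sets, most of them dimmer than the members. The median of the members was 0.045, against -0.0066 over all probe sets, and 0.027 without the 3 arrays of low weight. In all, 31 members lay above 0 and 10 below, with an unadjusted p under 0.05 for 14 of 41, beside 11167 of all 54675 probe sets.

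ORC1 encodes the largest subunit of the origin recognition complex and, unlike most of that complex, is known to be removed in S phase. It read 8.19, 8.09 and 9.02 in H133W cells with TNFα, against 7.76, 7.79 and 7.78 in empty vector cells with TNFα. All 3 H133W arrays were above all 3 empty vector arrays, and the third of them, the one of low weight, stood far above its replicates. The change was 0.66 ± 0.16 (limma, adjusted p = 0.0178), and without that array it was 0.36 (limma, adjusted p = 0.0294). The call was lost when any of the 3 empty vector arrays was left out (limma, adjusted p = 0.0565 to 0.0633), with the change at 0.65 to 0.66. Without TNFα, ORC1 read 8.25, 8.26 and 8.20 in H133W cells, against 7.86, 8.16 and 7.996 in empty vector cells, groups that did not overlap, with a difference of 0.23 that was not called (limma, adjusted p = 0.549).

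MCM6, a subunit of the ring, read 11.45, 11.47 and 11.73 in H133W cells with TNFα, against 11.27, 11.24 and 11.29 in empty vector cells with TNFα. The groups did not overlap, and the third H133W array was again the highest. The change was 0.28 ± 0.069 (limma, adjusted p = 0.022), and without that array it was 0.19 and not called (limma, adjusted p = 0.0978). Without the 3 arrays of low weight it was the same 0.19, and it was called (limma, adjusted p = 0.0383). The others of the 3 are in neither group compared here, so they act on this call only through the shared fit. The call was also lost without any of the empty vector arrays. The 6 subunits MCM2 to MCM7 were all above 0 in this comparison, with a median of 0.17 and a range of 0.037 to 0.51, and all 6 were above 0 without TNFα as well, with a median of 0.064, but MCM6 with TNFα was the single call among them. Without the 3 arrays of low weight the medians were 0.093 with TNFα and 0.10 without. MCM5 had the largest difference of the 6, at 0.51 ± 0.16 (limma, adjusted p = 0.0679), and 0.23 without the third array, on which it read 9.83 beside 9.01 and 8.95.

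CDKN1B encodes p27, an inhibitor of cyclin E with CDK2, and so acts against entry into S phase. It read 10.70, 10.77 and 10.92 in H133W cells with TNFα, against 10.62, 10.52 and 10.39 in empty vector cells with TNFα. The groups were apart by less than 0.1 between their nearest arrays. The change was 0.29 ± 0.078 (limma, adjusted p = 0.035), and the call was lost without H133W array 3 (0.23, adjusted p = 0.146), without empty vector array 2 or 3, and without the 3 arrays of low weight. Without TNFα the groups overlapped, at 10.75, 10.83 and 10.79 in H133W cells, against 10.83, 10.74 and 10.70 in empty vector cells.

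CCND1, which encodes cyclin D1, was lower. It read 10.83, 10.90 and 10.71 in H133W cells with TNFα, against 11.05, 11.01 and 11.02 in empty vector cells with TNFα. Every H133W array lay below every empty vector array, and array 3 was the lowest. The change was -0.21 ± 0.059 (limma, adjusted p = 0.0435), and -0.16 without array 3 (limma, adjusted p = 0.169), so that the call rested on that array and also on each of the empty vector arrays. Centring the arrays again on their medians also ended it, at -0.19 (limma, adjusted p = 0.0653). Of the other D cyclins and their kinases, CCND2, CCND3, CDK4 and CDK6 lay between -0.08 and 0.13, and none was called.

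**Figure D2:**
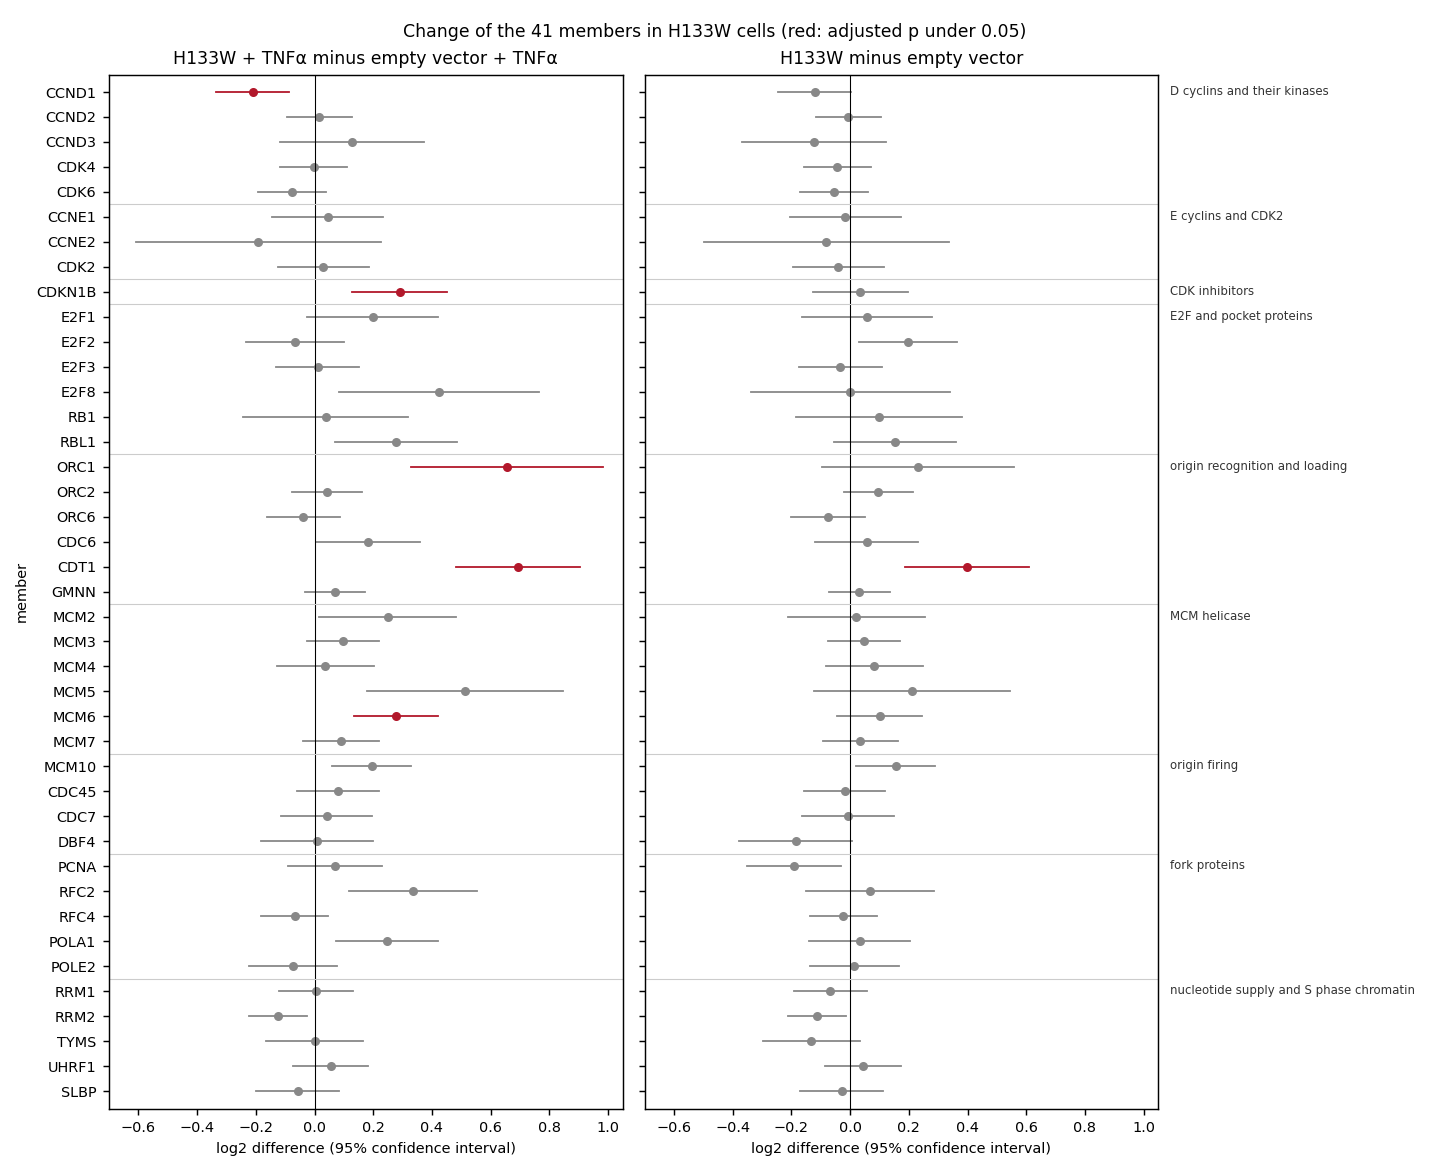
Log2 change of each of the 41 members in H133W cells against empty vector cells, with TNFα on the left and without on the right, as points with 95% confidence intervals ordered by role. Red marks the 5 members called with TNFα and CDT1 as the 1 called without.

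The E2F and pocket proteins had a median of 0.12 with TNFα and 0.077 without, and none was called on its brightest probe set. The largest values with TNFα were 0.42 for E2F8, which represses E2F targets late in S phase, and 0.28 for RBL1, which encodes the pocket protein p107. The value for E2F8 rested on the third array, where it read 8.75 beside 7.76 and 7.85, and was 0.11 without it. RBL1 went the other way on that array, at 8.96 beside 9.32 and 9.43, and without the 3 arrays of low weight its change was 0.42 (limma, adjusted p = 0.00696). E2F1 and E2F3, activators of S phase genes, were at 0.20 and 0.01, and RB1 was at 0.04, while without the third array E2F1 was at 0.027 and RB1 at 0.17. Leaving out the 3 arrays thus changed which members were called with TNFα and not how many: CDT1, ORC1, MCM6, RBL1 and RFC2, all higher. Of all 54675 probe sets 5.89% were then called in either direction, 1795 of them higher and 1427 lower.

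**Figure D3:**
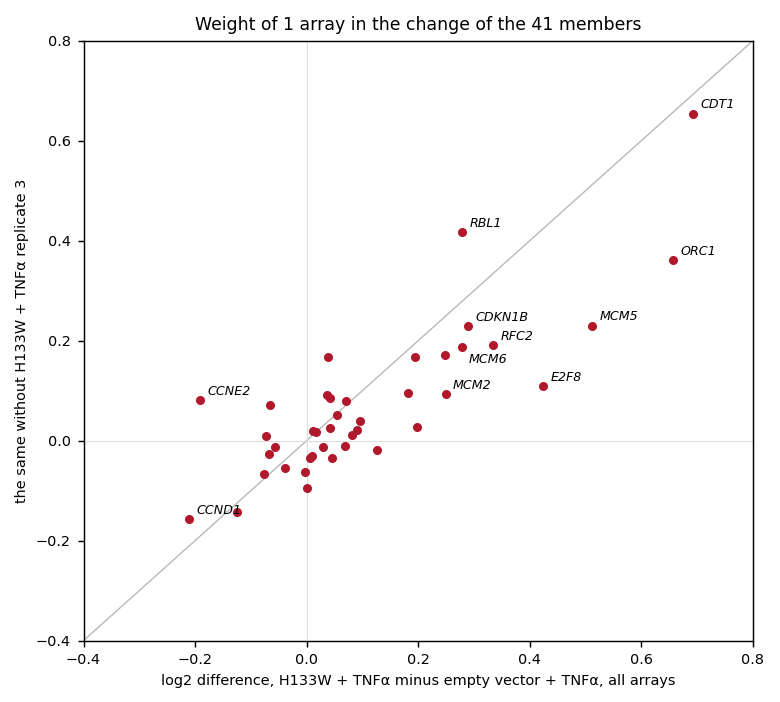
Log2 change of the 41 members in H133W cells with TNFα against empty vector cells with TNFα, from all arrays on the horizontal axis and without replicate 3 of H133W with TNFα on the vertical axis, with a line where both are equal. CDT1 lies near the line at 0.69 and 0.65, whereas ORC1, MCM5 and E2F8 drop to 0.36, 0.23 and 0.11.

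The remaining roles held no call on the brightest probe sets with every array kept in. E cyclins and CDK2 lay between -0.19 and 0.05 with TNFα and between -0.08 and -0.02 without. The lowest of these, CCNE2 with TNFα, was at 0.08 without the third H133W array. Among origin firing factors, the largest value with TNFα was 0.19 for MCM10, which helps to activate the helicase, and without TNFα it was at 0.15. DBF4, the partner of CDC7, was at -0.19 without TNFα and 0.01 with it. Among fork proteins, PCNA, the sliding clamp, was at -0.19 without TNFα and 0.07 with it, while RFC2 was at 0.33 and POLA1, the catalytic subunit of DNA polymerase alpha, at 0.25 with TNFα. Without the third H133W array with TNFα these were -0.01 for PCNA, 0.19 for RFC2 and 0.17 for POLA1. RRM2, the small subunit of ribonucleotide reductase, was at -0.11 without TNFα and -0.13 with it. None of these passed the test with every array kept in, and of them RFC2 passed it without the 3 arrays of low weight, both with TNFα and without. With TNFα RFC2 did not pass when the third H133W array alone was left out (limma, adjusted p = 0.324).

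Both H133W effects were then averaged over unstimulated and stimulated cells in the same fit, a comparison chosen after the data had been seen. In this average 5 members were higher against 4.86% of all probe sets and 2 were lower against 4.40%. CDT1 rose by 0.55 ± 0.072 (limma, adjusted p = 3.8e-05), ORC1 by 0.44 and MCM5 by 0.36. MCM6 and MCM10 rose by 0.19 and 0.17, whereas CCND1 fell by 0.17 and RRM2 fell by 0.12. When each of the 12 arrays was left out in turn, CDT1, ORC1 and CCND1 kept their calls. The call of MCM5 was lost in 8 of 12 cases, namely without each H133W array lacking TNFα, each empty vector array with TNFα, and replicate 1 or 3 of the unstimulated empty vector, and its change was 0.22 without H133W with TNFα replicate 3. That of RRM2 was lost in 7, namely without each H133W array lacking TNFα, H133W with TNFα replicate 2, empty vector replicate 3, or empty vector with TNFα replicate 2 or 3. That of MCM10 was lost without empty vector replicate 3 or empty vector with TNFα replicate 2, and that of MCM6 without empty vector replicate 3. Without the 3 arrays of low weight there were 11 calls against 14.1% of all probe sets: the same 7, and E2F2, RBL1, RFC2 and POLA1, all higher.

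A further 40 probe sets were named for 24 of the members, and they moved to the same side as the brightest one in 27 of 40 cases in H133W cells without TNFα and 26 of 40 with it. Of these 40, 4 were called higher and 0 lower without TNFα, beside 2.00% of all probe sets higher and 1.03% lower. With TNFα 3 were called higher and 2 lower, beside 2.97% and 2.28%. The second probe set of CDT1, 209832_s_at, read 8.52, 8.47 and 8.91 in H133W cells with TNFα, against 8.01, 7.99 and 8.004 in empty vector cells with TNFα. It read 8.64, 8.75 and 8.64 in H133W cells without TNFα, against 8.06, 8.37 and 8.30 in empty vector cells. Neither pair of groups overlapped, and the changes were 0.63 (limma, adjusted p = 0.00113) and 0.44 (limma, adjusted p = 0.0262), close to those of the first probe set. RBL1 was called as well on 1555004_a_at though not on its brightest probe set, at 0.73 with TNFα (limma, adjusted p = 0.00417) and 0.61 without (limma, adjusted p = 0.0205). That probe set read 5.99, 5.69 and 5.77 in H133W cells with TNFα, against 5.11, 5.16 and 5.01 in empty vector cells with TNFα, so its groups did not overlap either. In SIRT6 cells its mean was 5.53 with TNFα, and 5.79 without, beside 5.89 in H133W cells and 5.28 in empty vector cells without TNFα. The dimmer RBL1 probe sets differed in direction with TNFα: 1559307_s_at had means of 4.58 in H133W and 4.68 in empty vector cells, and 1555003_at 2.68 and 2.33. For MCM10, 220651_s_at was called without TNFα at 0.23 (limma, adjusted p = 0.0478).

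TYMS, which encodes thymidylate synthase, was the member with probe sets called in opposite directions. Probe set 217684_at read 6.65, 6.61 and 6.34 in H133W cells with TNFα, against 6.09, 6.15 and 5.93 in empty vector cells with TNFα, a rise of 0.47 (limma, adjusted p = 0.0302). Probe set 1554696_s_at read 10.36, 10.30 and 10.01 in H133W cells with TNFα, against 10.51, 10.57 and 10.60 in empty vector cells with TNFα, a change of -0.34 (limma, adjusted p = 0.0221) that was not called without the 3 arrays of low weight (-0.23, adjusted p = 0.0662). The brightest, 202589_at, read 11.43, 11.48 and 11.74 in H133W cells with TNFα, against 11.51, 11.58 and 11.56 in empty vector cells with TNFα, with no net difference. Without the third H133W array, the one of lowest weight, its difference was -0.09. No single direction can therefore be given for TYMS. Without TNFα the dimmest of the 3, 217684_at, was higher by 0.85 in H133W cells (limma, adjusted p = 0.000396), and the other 2 were not called. CDK6 had 7 probe sets, of which 243000_at was at -0.31 with TNFα (limma, adjusted p = 0.0382), and at -0.24 and not called without the 3 arrays of low weight, while the brightest was at -0.08.

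**Figure D4:**
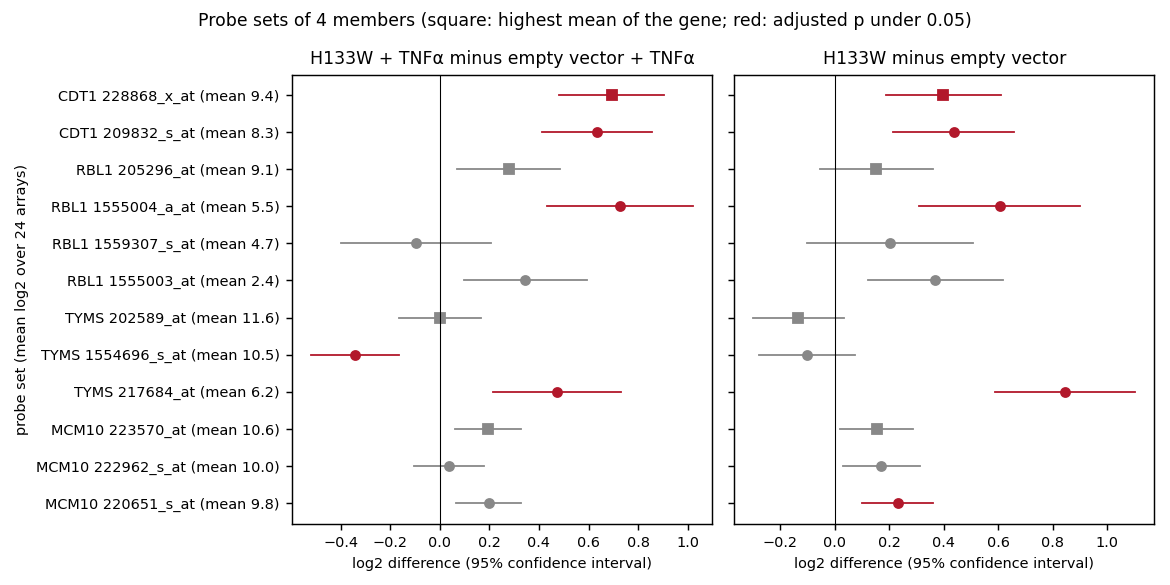
Log2 change in H133W cells against empty vector cells for every probe set named for CDT1, RBL1, TYMS and MCM10, with 95% confidence intervals, with TNFα on the left and without on the right; squares mark the brightest probe set of a gene and red marks calls. Both probe sets of CDT1 lie at 0.40 to 0.69, while those of TYMS fall on both sides of 0.

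With wild type SIRT6 no member passed the test. In SIRT6 cells 0 of 41 members were called against empty vector cells, against 0.0713% of all probe sets, and with TNFα 0 of 41, against 0.135% (limma, and 0 by a plain linear model in both). An unadjusted p under 0.05 was reached by 1 member without TNFα, beside 3046 of all 54675 probe sets, and by 5 with it, beside 3613. The members lay above 0 in 29 and 30 of 41 cases, with medians of 0.041 and 0.044, against -0.0031 and -0.0041 over all probe sets, the first being 0.065 without the 3 arrays of low weight. CDT1 read 9.60, 9.39 and 9.57 in SIRT6 cells with TNFα, against 9.24, 9.17 and 8.98 in empty vector cells with TNFα, and 9.26, 9.54 and 9.28 in SIRT6 cells without TNFα, against 9.20, 9.25 and 9.03. These groups did not overlap, and the differences were 0.39 ± 0.10 (limma, adjusted p = 0.223) and 0.20 ± 0.10 (limma, adjusted p = 0.922). ORC1 differed by 0.27 and 0.17, and the 6 origin recognition and loading members all lay above 0 in both comparisons, with medians of 0.15 with TNFα and 0.10 without. The SIRT6 and the H133W values share their empty vector arrays, so a low or high array among those moves both.

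Averaged over both stimulations, again a comparison chosen after the data had been seen, SIRT6 gave 0 calls against 0.644% of all probe sets (limma, with 1 by a plain linear model, GMNN at 0.10). CDT1 was at 0.30 ± 0.072 (limma, adjusted p = 0.067). Without the 3 arrays of low weight 4 members were called higher, against 2.40% of all probe sets in either direction: CDT1 at 0.32, ORC1 at 0.26, RFC2 at 0.18 and POLA1 at 0.15. Of all 54675 probe sets 946 were then higher and 365 lower. The call of CDT1 in the SIRT6 average thus depended on the arrays kept.

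H133W cells were compared with SIRT6 cells directly, since an effect called against the empty vector for one and not for the other is not shown to differ between them. Without TNFα 0 of 41 members were called, against 0.428% of all probe sets, and with TNFα 0 of 41, against 1.15% (limma). At an unadjusted p under 0.05 there were 0 members without TNFα, beside 4751 of all 54675 probe sets, and 8 with it, beside 8719. A plain linear model called 0 and 1 (RRM2). With TNFα the members' median was 0.031, and it was -0.013 without the 3 arrays of low weight, again with 0 calls. CDT1 was higher in H133W cells by 0.20, with a 95% confidence interval of -0.014 to 0.41, and with TNFα by 0.30, with an interval of 0.093 to 0.52 (limma, adjusted p = 0.617 and 0.15). The mutant and the wild type therefore could not be separated on these genes after adjustment, and the intervals leave room for a difference as large as the effect of SIRT6 itself. The SIRT6 probe set given above read higher in H133W cells than in SIRT6 cells without TNFα, and its part in these differences was not tested.

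The response to TNFα was compared within each kind of cell. CDK6, a kinase of the D cyclins, was the single member called, in untransfected cells, as 1 of 41 higher against 1.03% of all probe sets and 0 lower against 0.583%. It read 11.49, 11.38 and 11.33 in untransfected cells with TNFα, against 11.20, 11.19 and 11.15 in those without, a rise of 0.22 ± 0.055 (limma, adjusted p = 0.0472). The groups did not overlap, but the call was lost without any array except replicate 3 with TNFα. In H133W cells CDK6 read 11.30, 11.35 and 11.30 with TNFα, against 11.20, 11.14 and 11.18 without. In SIRT6 cells it read 11.41, 11.41 and 11.36 with TNFα, against 11.28, 11.23 and 11.30 without, and in empty vector cells 11.37, 11.37 and 11.44 with TNFα, against 11.16, 11.29 and 11.22 without. Thus all arrays with TNFα were above all those without in each kind of cell, with differences of 0.14, 0.13 and 0.16 that were not called.

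In the transfected cells no member was called for TNFα. The counts were 0 of 41 in H133W cells against 3.24% of all probe sets, 0 in SIRT6 cells against 2.09% and 0 in empty vector cells against 1.95% (limma, and 0, 0 and 1 by a plain linear model). At an unadjusted p under 0.05 there were 10, 1 and 3 members, beside 9984, 5741 and 6554 of all 54675 probe sets. H133W cells had the highest median, 0.065, with 33 members above 0 and 8 below, and 0.024 without the 3 arrays of low weight, against -0.0048 over all probe sets. The largest values there were 0.36 for E2F8, which rested on the third array, 0.28 for DBF4, 0.26 for CDT1, 0.25 for POLA1 and 0.23 for PCNA. The second probe set of CDT1 gave -0.04 in the same comparison. CDKN1B was lower with TNFα by 0.24 in empty vector cells and by 0.18 in untransfected cells, at 0.01 in H133W cells and at -0.06 in SIRT6 cells, and none of these was called.

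**Figure D5:**
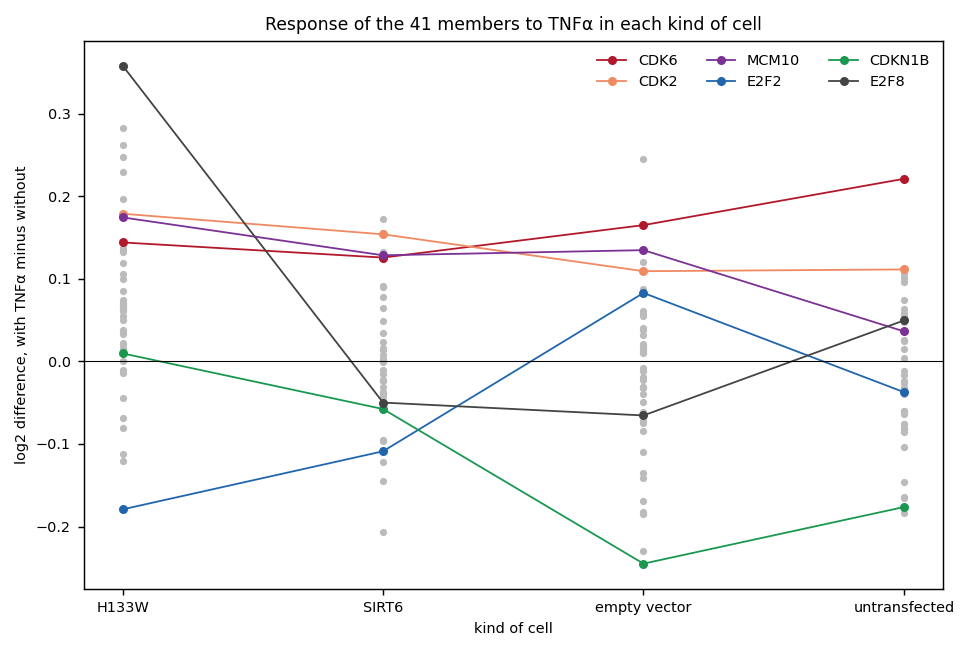
Response of all 41 members to TNFα (log2 difference from unstimulated cells), as a point in each of the 4 kinds of cell, with coloured lines joining CDK6, CDK2, MCM10, E2F2, CDKN1B and E2F8 across them. CDK6 is above 0 in every kind of cell, at 0.13 to 0.22, while CDKN1B is at -0.24 in empty vector cells and 0.01 in H133W cells.

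Whether the response to TNFα itself differed between kinds of cell was tested with interaction terms. No member was called for H133W against empty vector, where 0.00366% of all probe sets were, nor for SIRT6 against empty vector or for empty vector against untransfected cells, where 0% of probe sets were (limma, and 0 by a plain linear model). At an unadjusted p under 0.05 there were 3, 0 and 0 members, beside 4623, 1096 and 1321 of all 54675 probe sets. The median of the members for H133W against empty vector was 0.055, and it was -0.0024 without the 3 arrays of low weight, again with 0 calls. For CDKN1B the difference between H133W and empty vector cells was 0.25 (limma, adjusted p = 0.567). Averaged over the 4 kinds of cell, a comparison chosen after the data had been seen, TNFα raised CDK6 by 0.16 ± 0.028 (limma, adjusted p = 0.000346), CDK2 by 0.14 and MCM10 by 0.12, as 3 of 41 higher against 4.60% of all probe sets, with 0 lower against 7.10%. Without the 3 arrays of low weight 11 members were called, against 21.2% of all probe sets. Among these, CCNE2, CDK6, DBF4, MCM10, CDK2 and POLA1 were higher and CCND3, CDKN1B, E2F1, ORC1 and MCM5 lower.

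No member was called for transfection with the empty vector alone. Against untransfected cells 0 of 41 were called, against 0.269% of all probe sets, and with TNFα 0 of 41, against 0.0439% (limma, and 0 by a plain linear model in both). At an unadjusted p under 0.05 there were 0 members in both, beside 6756 of all 54675 probe sets without TNFα and 6292 with it. The members' changes lay between -0.20 and 0.17 without TNFα and between -0.12 and 0.16 with it.

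Other genes of the same steps gave few calls. Of 65 further G1-S and replication genes, 0 were called in H133W cells against empty vector cells without TNFα (limma), beside 2.00% of all probe sets higher and 1.03% lower. An unadjusted p under 0.05 was reached by 12 of the 65, beside 8063 of all 54675 probe sets. With TNFα 2 were called higher and 0 lower: CDC25A, a phosphatase that activates CDK2, at 0.23 (limma, adjusted p = 0.0164), and PRIM2, a primase subunit, at 0.34 (limma, adjusted p = 0.0155), beside 2.97% of all probe sets higher and 2.28% lower. The medians of the list were -0.040 without TNFα and 0.019 with it. With the 3 arrays of low weight left out the medians were -0.013 and -0.020, so the second changed sign. In that setting 5 of the list were called without TNFα, beside 5.70% of all probe sets: CDC25A at 0.17 and CHEK1, a checkpoint kinase, at 0.31 were higher, and E2F5 at -0.22, MTBP at -0.38 and ASF1B, a histone chaperone, at -0.29 were lower. With TNFα 3 were called, beside 5.89%: CDC25A at 0.18 was higher and ASF1B at -0.27 and FBXO5, an inhibitor of the anaphase promoting complex, at -0.23 were lower, while PRIM2 was not called. POLD4, a subunit of DNA polymerase delta, was lower with TNFα in H133W cells, at -0.27 (limma, adjusted p = 0.0473), and CDKN2D, an inhibitor of CDK4 and CDK6, was higher in the SIRT6 average, at 0.33 (limma, adjusted p = 0.0303).

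Most genes of G2 and mitosis lay below 0 in H133W cells. Of 32 such genes, 31 were below 0 without TNFα, with a median of -0.18, beside 0.015 for the licensing members and -0.017 for all probe sets. Below 0 were also 29811 of all 54675 probe sets. Of the 65 further G1-S and replication genes, 43 were below 0 as well, with a median of -0.040. With the 3 arrays of low weight left out the medians were -0.11 for the G2 and mitosis genes, 0.043 for the licensing members and -0.013 for the further genes. With every array kept in, the genes called, 2 of 32 beside 1.03% of all probe sets lower, were TTK, a checkpoint kinase, at -0.42 (limma, adjusted p = 0.0411), and UBE2C, a ubiquitin conjugating enzyme of mitotic exit, at -0.22 (limma, adjusted p = 0.0201). With the 3 arrays left out 4 were called lower, beside 5.70% of all probe sets in either direction: UBE2C, AURKB, CENPA and CDK1, while TTK was not (limma, adjusted p = 0.0532). With TNFα 25 of 32 were below 0, beside 28224 of all 54675 probe sets, with a median of -0.068, and -0.11 without the 3 arrays. The 3 called, beside 2.28% of all probe sets lower, were AURKB, a kinase of the chromosomal passenger complex, at -0.28, CENPA, the centromeric histone, at -0.59, and UBE2C at -0.23 (limma, adjusted p = 0.00558, 0.0156 and 0.011). Without the 3 arrays of low weight these, CENPA then at -0.37, and PLK1, a mitotic kinase at -0.31, were called lower, beside 5.89% of all probe sets in either direction. The lists were not tested against each other. In SIRT6 cells against empty vector cells, 27 of the 32 G2 and mitosis genes were below 0 without TNFα and 19 with it. Their medians were -0.034 and -0.0095, the first being 0.020 without the 3 arrays of low weight. In H133W cells against SIRT6 cells, 31 of the 32 were below 0 without TNFα and 25 with it, with medians of -0.14 and -0.055. AURKB was also lower in H133W cells with TNFα than in SIRT6 cells with TNFα, by 0.23 (limma, adjusted p = 0.0481), a call that was lost without the 3 arrays of low weight (-0.19, adjusted p = 0.0869).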

How the data were processed

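Total RNA of HEK293 cells was hybridised to 24 Affymetrix U133 Plus 2.0 arrays. The deposited values are log2 signals per probe set, summarised and normalised together by the authors with RMA, and they ran from 1.52 to 13.75, with medians of the arrays between 5.30 and 5.38. Array files before normalisation were not used here. Probe sets were named from the platform annotation: 41097 had 1 gene, 1801 several and 11777 none, and those of several genes were left out of the lists.

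All 54675 probe sets were fitted with limma 3.58.1 in R 4.3.3, with a mean for each of the 8 conditions (16 residual degrees of freedom), moderated variances and Benjamini-Hochberg adjustment over all probe sets of each comparison. A member was called at an adjusted p under 0.05. There were 12 comparisons of 2 conditions, 3 interaction terms and 3 averages, the averages being added after the data had been seen. With 3 arrays in a condition the number of arrays limits the precision, and a SE is that of the fit. The same fit was tested on simulated data. The fit was also run as an unmoderated (plain) linear model, on the 6 compared arrays alone, and with a variance trend, array weights, further centring, a filter on dim probe sets, a fold change over 1.5, the second brightest probe set, a replicate block, and arrays left out.

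Every member could be named. Values on each array are given for called members and for the member whose probe sets were called in opposite directions, and other genes are named from the lists where called. The members and lists were chosen with earlier results of these data known. Listed genes with no probe set of their own were not analysed here. Promoter sequences were taken from RefSeq on GRCh38.p14.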

Additional observations from a re-analysis of the deposited data

Results flagged for a closer look

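E2F2, an activator of S phase genes, was higher with TNFα in empty vector cells and not in the other kinds of cell. It changed by -0.18 in H133W cells and by -0.11 in SIRT6 cells, against 0.083 in empty vector cells, on the log2 scale. In H133W cells it read 10.90, 10.87 and 10.47 with TNFα, against 10.91, 10.93 and 10.93 without. In SIRT6 cells it read 10.798, 10.79 and 10.78 with TNFα, against 10.88, 10.93 and 10.88 without, and in empty vector cells 10.79, 10.79 and 10.84 with TNFα, against 10.77, 10.64 and 10.77 without. Arrays with TNFα were all below those without in both transfected groups that carried a construct, and all above them in empty vector cells. In untransfected cells they overlapped, at 10.67, 10.65 and 10.62 with TNFα, against 10.74, 10.64 and 10.67 without. The difference between responses was -0.26 for H133W and -0.19 for SIRT6 (limma, adjusted p = 0.567 and 1), neither of them called. The low array of H133W with TNFα, at 10.47, is the one of lowest weight, and without the 3 arrays of low weight the H133W difference was -0.08. The empty vector array at 10.64 is also one of those 3.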

How the results depend on the processing

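Counts of called members depended on the setting more than the changes did. The share of all probe sets called moved as well. Without the 3 arrays of low weight it rose to 5.70% for H133W and 5.89% for H133W with TNFα. For the H133W, SIRT6 and TNFα averages it rose to 14.1%, 2.40% and 21.2%. Shares in the other settings, or with 1 array left out, are not reported here, so those counts have no background beside them. In H133W against empty vector cells, where 1 member was called, there were 2 with a plain linear model, a variance trend or the second brightest probe set, 4 without the 3 arrays of low weight, and 0 with the 6 arrays fitted alone, median centring, a fold change over 1.5 or the replicate block. With TNFα, where 5 were called, there were 0 with the 6 arrays fitted alone, 9 with a variance trend, 8 with array weights, 10 without dim probe sets, 2 at a fold change over 1.5 and 3 with the second brightest probe set. For the H133W average, with 7, these were 0 at the fold change over 1.5, 4 with the second probe set and 11 without the 3 arrays. The SIRT6 average, with 0, had 1 with a plain linear model, a trend, no dim probe sets or the second probe set, 2 with weights and 4 without the 3 arrays. The TNFα average, with 3, had 5 with a plain linear model, 7 with a trend or without dim probe sets, 10 with weights, 0 at the fold change, 1 with the second probe set and 11 without the 3 arrays. TNFα in untransfected cells, with 1, had 0 with the 6 arrays fitted alone, either renormalisation, the fold change, the second probe set or the replicate block. Counts of 0 became 1 for SIRT6 with TNFα and for empty vector against untransfected cells with TNFα (array weights, CDT1 and E2F2), for H133W against SIRT6 with TNFα (plain linear model, RRM2), and for TNFα in empty vector cells (plain linear model or trend, CDK6).

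Leaving out 1 array at a time gave 0 calls for H133W, 1 (without empty vector with TNFα replicate 2) to 9 (without H133W with TNFα replicate 1) for H133W with TNFα, 3 (without empty vector replicate 3) to 9 (without H133W with TNFα replicate 3) for the H133W average, 3 to 6 for the TNFα average, 0 to 1 for TNFα in untransfected cells, 0 to 2 for TNFα in H133W cells, and 0 elsewhere. For single members named in these comparisons, 1 value was reversed: CDK6 with TNFα in H133W cells, at -0.39 on its second probe set, which was not called either. That probe set, 224851_at, read 11.01, 11.01 and 9.52 with TNFα, against 10.88, 10.81 and 11.01 without, and the 9.52 is from the array of lowest weight. Its means were higher with TNFα in SIRT6 cells (11.14 against 10.95), empty vector cells (11.09 against 10.66) and untransfected cells (11.18 against 10.78). Why these settings differ was not tested. Same-numbered arrays were not treated as pairs: their deviations correlated between -0.38 and 0.28, and in 0 of 12 comparisons was every correlation over 0.1. This check cannot exclude a batch shared by arrays of the same replicate number.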
